A study of Mus musculus with 4 samples.

Results

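The respiratory chain genes described here are 40 nuclear genes for complexes I to IV of the mitochondrial inner membrane. They were listed by name, with earlier results of these data known. They comprise 18 for complex I, 4 for complex II, 6 for complex III, 11 for complex IV and Cycs, which encodes cytochrome c. All 40 had a probe on the array, 33 of them a single probe, and all 40 passed the filter on dim probes, among 22926 features tested. Each of the 40 probes used was well above background on all 4 arrays. All hearts came from male mice 5 days after the left anterior descending coronary artery had been tied off, which infarcts the muscle it supplies. The knock-out hearts (KO, replicates 3 and 4) came from mice labelled VE-Cad-Cre-S1pr1 fl/fl, in which floxed S1pr1, the gene of a sphingosine 1-phosphate receptor, is the target of a Cre under the endothelial VE-cadherin promoter. The wild-type hearts (WT, replicates 1 and 3) had the same operation and time point. The labels give neither age, nor which part of the heart was taken, nor the alleles of the WT mice. They do not state that the arrays are of different hearts either; p-values therefore refer to the spread between these samples alone, which may be technical. Cardiomyocytes, the cells with the most mitochondria in the heart, are not the cells this Cre is meant to act in.

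Complexes I and II pass electrons from NADH and succinate to ubiquinone, complex III passes them on to cytochrome c, and complex IV hands them to oxygen. Complexes I, III and IV pump protons across the inner membrane, and ATP synthase uses the gradient. Heart muscle depends on this pathway for most of its ATP. It also uses muscle forms of some complex IV subunits, Cox6a2, Cox7a1 and, in mice, Cox8b, where most other tissues use Cox6a1, Cox7a2 and Cox8a. Subunits encoded by mitochondrial DNA were not analysed here.

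Levels are log2 signals of Cy3-labelled RNA relative to the 75th percentile of the same array, and each difference is the KO mean minus the WT mean of these log2 levels. S1pr1 was at -2.69 and -2.30 on the KO arrays, against 0.43 and 0.95 in WT, with both KO arrays below both WT arrays. Its difference was -3.19 (SE 0.38, limma unadjusted p = 7.1e-04, limma adjusted p = 0.740). Where its probe lies relative to the deleted part was not determined. The 4 arrays shared 1 scan time, and along the scan the KO arrays held positions 1 and 2 and the WT arrays positions 3 and 4, so position and genotype cannot be told apart. Well above background were 73.4% and 71.5% of the probes on the KO arrays, and 54.3% and 69.4% of those on WT replicates 1 and 3. Across all features, WT replicate 1 correlated with KO replicate 3, KO replicate 4 and WT replicate 3 at 0.950, 0.882 and 0.941, while WT replicate 3 and KO replicate 3 correlated at 0.986. These are correlations across genes, which are not independent replicates. WT replicate 1 also stood apart in the respiratory chain genes, so the medians are given with and without it. With 2 arrays a genotype, precision is limited by their number.

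The comparison asked whether expression in the infarcted heart differs when endothelial S1pr1 is lost. The 40 respiratory chain genes moved together from array to array, in an order that did not follow genotype. For 39 of them, all but Cox6a1, the levels ran from WT replicate 1 (lowest) over KO replicate 3 and WT replicate 3 to KO replicate 4 (highest), an order found in 22.3% of all features. The mean over the 40 genes was 5.42 and 6.41 on the KO arrays, against 3.47 and 5.76 on WT replicates 1 and 3. The WT arrays thus enclosed 1 KO array, and 0 of the 40 genes had both KO values above both WT values (18.3% of all features did) or both below (16.1%). WT replicate 1 was the lowest array for 39 genes (41.7% of all features).

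**Figure D1:**
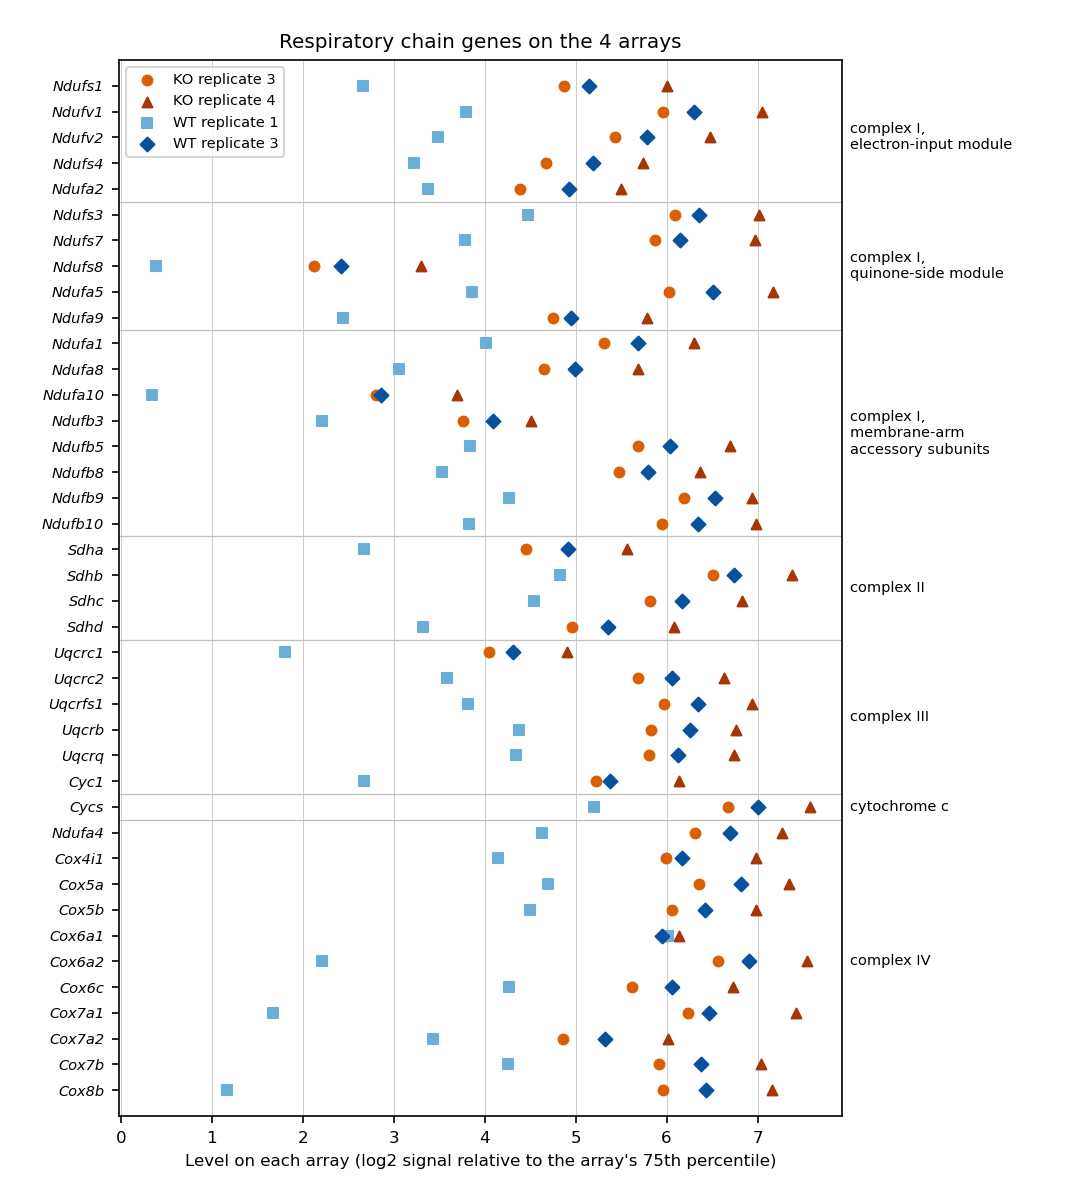
Level of each of the 40 respiratory chain genes (rows, grouped by complex) on the 4 arrays, as log2 signal relative to the array's 75th percentile. KO replicate 4 lies highest in every row, and WT replicate 1 lowest in every row but that of Cox6a1, whose 4 values span 0.19.

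All 40 genes had a higher mean in KO (54.8% of all features did), with a median difference of 1.19 and a range of 0.08 to 2.75, where the median over all features was 0.07. None passed the test: limma called 0 of the 40 and 0 of 22926 features (0% called) at an adjusted p of 0.05. At an unadjusted p of 0.05 it counted 0 of the 40 genes and 633 features (2.76%), and the smallest p of the 40, that of Ndufa10, was 0.153. The spread within genotypes was of the size of this difference: WT replicate 3 was above WT replicate 1 by a median of 2.12, and KO replicate 4 above KO replicate 3 by a median of 1.0. Against WT replicate 3 alone, the KO mean was higher by a median of 0.13 (0.01 for Ndufa2 to 0.39 for Ndufa10). The KO arrays had opposite signs behind this value. KO replicate 3 was below WT replicate 3 for 39 of the 40 genes, by a median difference of -0.34 (45.5% of all features were above), and KO replicate 4 was above it for 40, by a median of 0.65 (62.2% of all features).

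**Figure D2:**
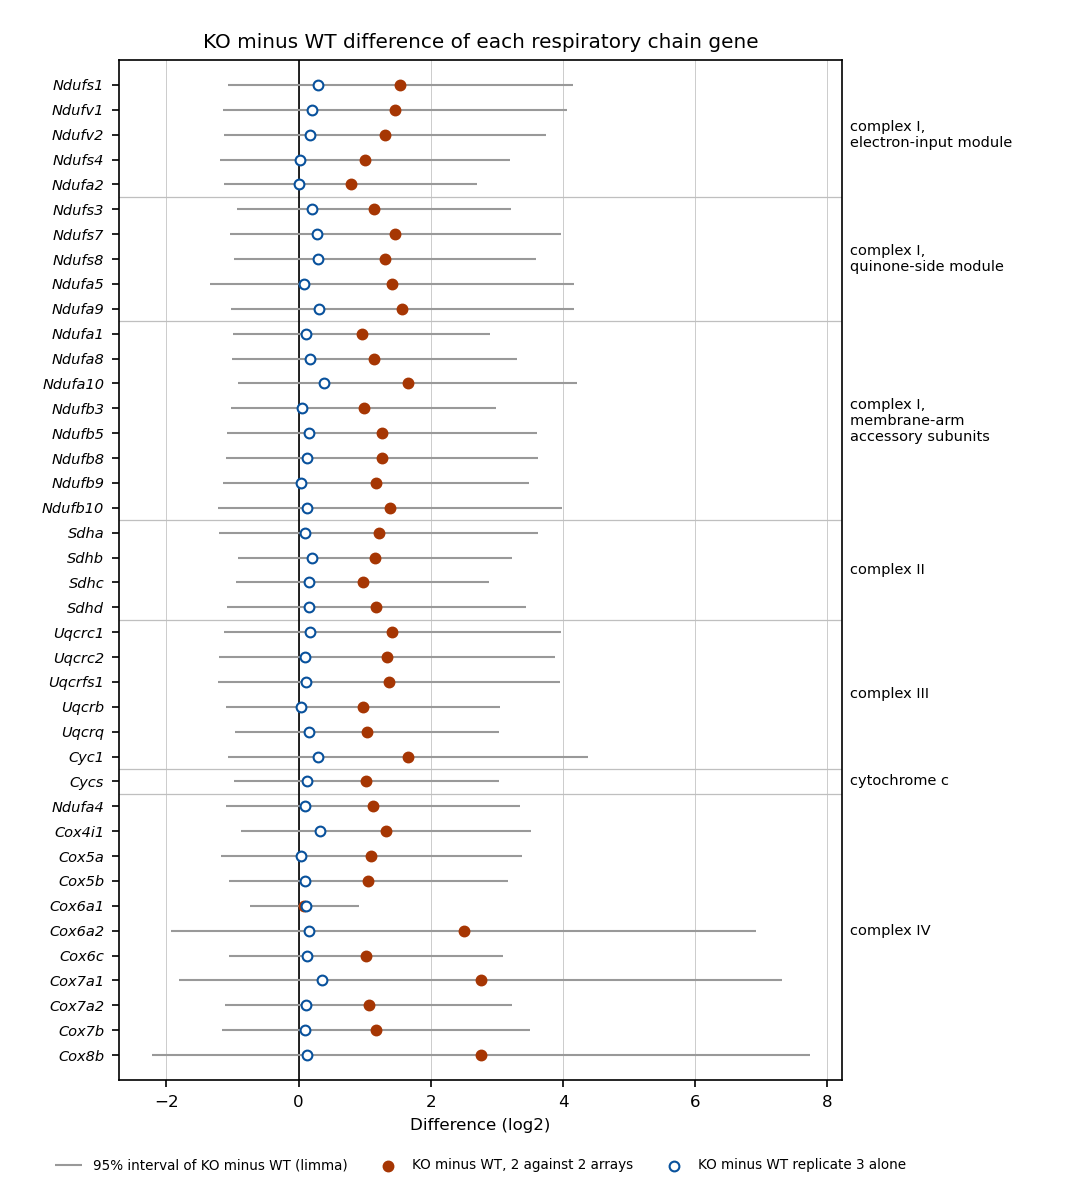
KO minus WT difference of each gene with its 95% interval from limma, and the difference of the KO mean from WT replicate 3 alone (open circles), on the log2 scale. Every interval spans 0, and the open circles lie between 0.01 and 0.39.

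Complex I takes in electrons from NADH at the tip of its arm in the matrix. Its 18 genes had a median difference of 1.28 (0.79 to 1.65), and 0.16 against WT replicate 3 alone. Of the 5 genes of the electron-input module, Ndufs1, which encodes the largest iron-sulfur subunit, was at 4.87 and 6.0 in KO, against 2.66 and 5.14 in WT (KO mean 5.44 ± 0.80, WT mean 3.90 ± 1.75, SD, n = 2 each). The difference was 1.54 (SE 0.97, 95% interval -1.07 to 4.14). Ndufv1, the subunit that binds NADH and flavin, was at 5.96 and 7.04 in KO, against 3.79 and 6.30 in WT (difference 1.46, SE 0.97). The iron-sulfur subunit Ndufv2 and the accessory subunit Ndufs4 differed by 1.31 (SE 0.91) and 1.0 (SE 0.81). The accessory subunit Ndufa2 differed least, with 4.39 and 5.49 in KO, against 3.37 and 4.93 in WT (difference 0.79, SE 0.71). In each of these genes WT replicate 3 lay between the KO arrays.

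The module that hands electrons to ubiquinone showed the same array order, with a median difference of 1.41 over 5 genes and 0.28 against WT replicate 3 alone. Ndufa9, an accessory subunit near the quinone site, was at 4.75 and 5.79 in KO, against 2.45 and 4.95 in WT (difference 1.57, SE 0.97). Ndufs7, which carries the last iron-sulfur cluster before ubiquinone, was at 5.87 and 6.97 in KO, against 3.78 and 6.14 in WT (difference 1.46, SE 0.93). Ndufs3, a core subunit of this module, was at 6.09 and 7.02 in KO, against 4.48 and 6.36 in WT (difference 1.14, SE 0.77). The remaining members, the iron-sulfur subunit Ndufs8 and the accessory subunit Ndufa5, differed by 1.31 (SE 0.85) and 1.41 (SE 1.02).

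The 8 accessory subunits of the membrane arm, the part that pumps protons, had a median difference of 1.21, and 0.13 against WT replicate 3 alone. Ndufa10 was at 2.80 and 3.69 in KO, against 0.34 and 2.86 in WT (KO mean 3.25 ± 0.63, WT mean 1.60 ± 1.78, SD, n = 2 each). Its difference was 1.65 (SE 0.95, 95% interval -0.92 to 4.21). Ndufb10 was at 5.95 and 6.98 in KO, against 3.82 and 6.34 in WT (difference 1.38, SE 0.97). Ndufa1, an X-linked gene, was at 5.31 and 6.30 in KO, against 4.01 and 5.68 in WT (difference 0.96, SE 0.72). KO replicate 3 was below WT replicate 3 in all 8, and closest to it for Ndufa10, at a difference of -0.06. Ndufa8, Ndufb3, Ndufb5, Ndufb8 and Ndufb9 differed by 1.15, 0.98, 1.26, 1.26 and 1.17.

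Complex II, succinate dehydrogenase, is also an enzyme of the citric acid cycle and is encoded by nuclear genes only. Its 4 subunits had a median difference of 1.17, with a range of 0.97 to 1.21, and a median of 0.16 against WT replicate 3 alone. Sdha, the flavoprotein that oxidises succinate, was at 4.45 and 5.56 in KO, against 2.68 and 4.91 in WT (KO mean 5.01 ± 0.79, WT mean 3.79 ± 1.58, SD, n = 2 each). Its difference was 1.21 (SE 0.90). Sdhb, the iron-sulfur subunit, was at 6.51 and 7.37 in KO, against 4.82 and 6.74 in WT (difference 1.16, SE 0.77). The membrane anchors followed the same arrays. Sdhc was at 5.82 and 6.83 in KO, against 4.55 and 6.17 in WT (difference 0.97, SE 0.71). Sdhd was at 4.96 and 6.08 in KO, against 3.33 and 5.36 in WT (difference 1.18, SE 0.84). In all 4 the gap between the WT arrays, 1.62 to 2.23, was larger than the difference between genotypes.

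Complex III had a median difference of 1.35 over 6 genes, and 0.13 against WT replicate 3 alone. Cyc1, which encodes cytochrome c1, was at 5.22 and 6.13 in KO, against 2.67 and 5.38 in WT (KO mean 5.68 ± 0.64, WT mean 4.03 ± 1.92, SD, n = 2 each). Its difference was 1.65 (SE 1.01). Uqcrc1, a core subunit, was at 4.05 and 4.91 in KO, against 1.81 and 4.31 in WT (difference 1.42, SE 0.95). Uqcrb, a small subunit that binds ubiquinone, was at 5.82 and 6.76 in KO, against 4.37 and 6.26 in WT (difference 0.97, SE 0.77). The Rieske iron-sulfur protein gene Uqcrfs1, the core subunit gene Uqcrc2 and the small subunit gene Uqcrq differed by 1.37, 1.34 and 1.04. Cycs, whose product carries electrons from complex III to complex IV, was at 6.68 and 7.57 in KO, against 5.20 and 7.0 in WT (difference 1.02, SE 0.74, and 0.12 against WT replicate 3 alone).

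Complex IV, cytochrome c oxidase, held both the largest and the smallest differences of the 40 genes. Its 11 genes had a median difference of 1.13, and 0.11 against WT replicate 3 alone. The 7 genes other than Cox6a1 and the muscle forms differed by 1.02 (Cox6c) to 1.33 (Cox4i1, a subunit through which ATP regulates the enzyme). Ndufa4, found first with complex I and now assigned to complex IV, was at 6.32 and 7.27 in KO, against 4.63 and 6.70 in WT (difference 1.13, SE 0.83). Cox5a, Cox5b and Cox7b differed by 1.1, 1.06 and 1.16.

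The muscle forms of complex IV differed most, through WT replicate 1. Cox7a1 was at 6.23 and 7.42 in KO, against 1.67 and 6.46 in WT (KO mean 6.82 ± 0.84, WT mean 4.07 ± 3.39, SD, n = 2 each). The difference was 2.75 (SE 1.70, 95% interval -1.80 to 7.31), a 6.75-fold higher mean that rests on WT replicate 1. Cox8b was at 5.96 and 7.16 in KO, against 1.17 and 6.44 in WT (KO mean 6.56 ± 0.85, WT mean 3.80 ± 3.72, SD, n = 2 each). Its difference was 2.75 (SE 1.85). Cox6a2 was at 6.56 and 7.54 in KO, against 2.21 and 6.90 in WT (KO mean 7.05 ± 0.69, WT mean 4.56 ± 3.32, SD, n = 2 each). Its difference was 2.50 (SE 1.65). These genes were higher on WT replicate 3 than on WT replicate 1 by 4.69 to 5.26, where the gap was 1.56 to 2.71 for the 36 genes other than these and Cox6a1. KO replicate 4 was above KO replicate 3 by 1.20 for Cox8b and 1.19 for Cox7a1, the largest such gaps of the 40 genes, and by 0.98 for Cox6a2. The gap was 0.14 for Cox6a1 and at least 0.74 for every other gene. Against WT replicate 3 alone, the KO mean was higher by 0.36 for Cox7a1, 0.15 for Cox6a2 and 0.12 for Cox8b.

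The ubiquitous forms behaved unlike each other. Cox7a2 was at 4.86 and 6.01 in KO, against 3.43 and 5.32 in WT (difference 1.06, SE 0.81), in the array order of the other genes. Cox6a1 was at 6.0 and 6.14 in KO, against 6.01 and 5.95 in WT, a difference of 0.08 (SE 0.31, 95% interval -0.74 to 0.91, limma adjusted p = 0.922) whose sign turned under another scaling (-0.025 with median scaling, -0.069 with quantile normalization). Its 4 values spanned 0.19, where the next smallest span, that of Ndufa2, was 2.12. Cox8a, the ubiquitous counterpart of Cox8b and not among the 40 genes, was at 5.27 and 5.60 in KO, against 4.91 and 5.17 in WT (difference 0.40, SE 0.34), with both KO values above both WT values.

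**Figure D3:**
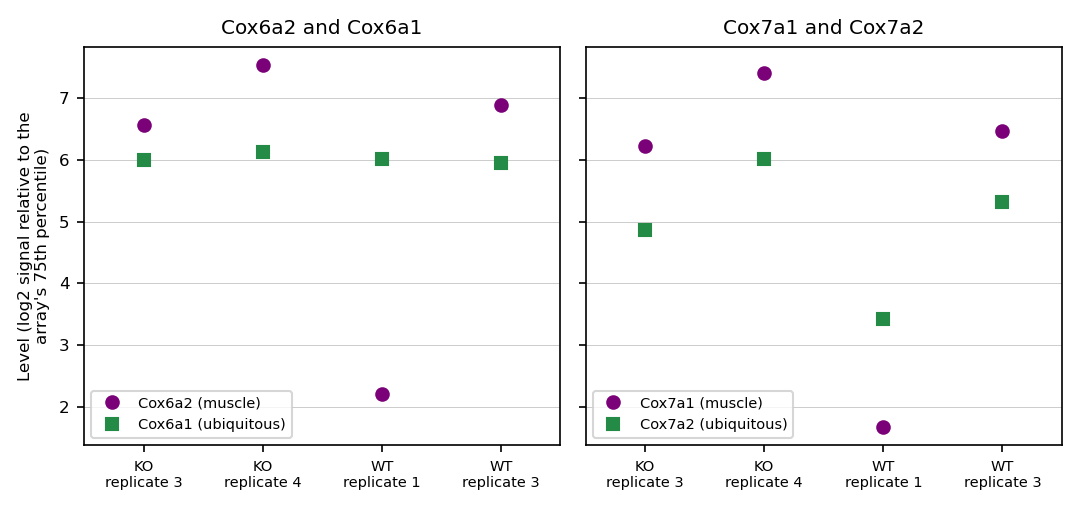
Levels of the muscle and ubiquitous forms of 2 complex IV subunits on each array, as log2 signal relative to the array's 75th percentile; heights of different probes are not comparable, changes between arrays are. Cox6a2 and Cox7a1 drop on WT replicate 1 to 2.21 and 1.67, while Cox6a1 lies between 5.95 and 6.14 on all arrays.

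The muscle form minus the ubiquitous form within each array shows how unequally the forms of a pair changed between arrays, not which is more abundant. Cox6a2 minus Cox6a1 was 0.57 and 1.40 on the KO arrays, against -3.80 and 0.95 on the WT arrays, a difference of 2.41. The groups overlapped, since WT replicate 3 lay between the KO arrays, and an exact two-sided permutation test gave p = 0.667. Cox7a1 minus Cox7a2 was 1.37 and 1.41 on the KO arrays, against -1.76 and 1.14 on the WT arrays, a difference of 1.70 with no overlap. Its exact p = 0.333 is the smallest that 2 against 2 arrays allow, and adjusted over the 2 pairs the exact p was 0.667 for each. The lack of overlap depended on the scaling. With quantile normalization or the deposited values, Cox7a1 minus Cox7a2 differed by 1.61 and the groups overlapped (exact permutation p = 0.667). Without WT replicate 1 the differences were 0.04 for Cox6a2 over Cox6a1 and 0.25 for Cox7a1 over Cox7a2. Cox8b minus Cox8a was 0.69 and 1.55 on the KO arrays, against -3.74 and 1.27 on the WT arrays.

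Promoters are shown for the complex IV genes that varied most (Cox8b, Cox7a1) and least (Cox6a1) between arrays, for Cox7a2 as the ubiquitous counterpart of Cox7a1, and for Cycs, whose promoter is a textbook target of the nuclear respiratory factor NRF1. The sequences are the 250 bases before the start of each gene in RefSeq, build GRCm38.p6, on the strand of the gene. They lie at chr5:115348959-115349208 (minus strand) for Cox6a1, chr9:79759854-79760103 (minus strand) for Cox7a2, chr7:30183921-30184170 (plus strand) for Cox7a1, chr7:140900447-140900696 (minus strand) for Cox8b and chr6:50566570-50566819 (minus strand) for Cycs. The table used holds no Cox6a2 promoter. Capitals mark matches, on either strand, to the NRF1 letters TGCGCA or GCGCATG or the ETS and GABP letters CCGGAAG.
Cox6a1: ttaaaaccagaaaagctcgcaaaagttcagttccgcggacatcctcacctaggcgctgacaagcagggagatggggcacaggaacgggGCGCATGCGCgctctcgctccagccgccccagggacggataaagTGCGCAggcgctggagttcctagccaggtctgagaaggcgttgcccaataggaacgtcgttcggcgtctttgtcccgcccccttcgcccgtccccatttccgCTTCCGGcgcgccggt
Cox7a2: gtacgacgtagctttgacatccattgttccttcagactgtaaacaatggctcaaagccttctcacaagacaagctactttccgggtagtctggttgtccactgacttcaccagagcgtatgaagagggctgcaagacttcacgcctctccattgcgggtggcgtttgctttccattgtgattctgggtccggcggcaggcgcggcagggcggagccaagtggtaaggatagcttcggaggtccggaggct
Cox7a1: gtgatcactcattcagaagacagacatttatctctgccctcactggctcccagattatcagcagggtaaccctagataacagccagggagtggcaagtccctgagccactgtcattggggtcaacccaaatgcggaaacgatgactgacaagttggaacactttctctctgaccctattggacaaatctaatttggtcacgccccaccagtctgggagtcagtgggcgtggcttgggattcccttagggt
Cox8b: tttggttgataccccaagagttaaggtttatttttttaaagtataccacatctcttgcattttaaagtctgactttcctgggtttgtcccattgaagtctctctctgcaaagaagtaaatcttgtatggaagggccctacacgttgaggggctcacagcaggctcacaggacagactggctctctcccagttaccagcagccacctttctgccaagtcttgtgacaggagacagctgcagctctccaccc
Cycs: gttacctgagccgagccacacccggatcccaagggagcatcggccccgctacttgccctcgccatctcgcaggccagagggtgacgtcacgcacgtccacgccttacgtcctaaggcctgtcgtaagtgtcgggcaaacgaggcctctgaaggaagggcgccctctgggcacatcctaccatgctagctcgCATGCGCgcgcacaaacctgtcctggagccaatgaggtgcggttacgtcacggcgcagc

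Of the 40 genes, 29 had a promoter in that table, searched from 250 bases before to 50 after the start. TGCGCA was in 10 of the 29 (34.5%, against 8.06% of 27025 promoters), among them Cox6a1, Ndufa9, Sdha and Uqcrc1. GCGCATG, searched after the promoters had been read, was in 7 (24.1%, against 4.04%), and matches to it can overlap those to TGCGCA. Either was in 12 (41.4%, against 9.65%), and neither was in the windows of Cox7a1, Cox7a2 or Cox8b. CCGGAAG was in 5 (17.2%, against 9.12%), AAGATGG, the core of the YY1 motif, in 4 (13.8%, against 6.48%), and AAGGTCA, the core bound by estrogen-related receptors, in 1 (3.45%, against 4.66%). These are matches of letters and not sites of binding.

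Genes that work beside the 40 were compared in the same fit, and 0 of them passed it. Of 18 other complex I subunits, 17 had a higher mean in KO, with a median difference of 1.08, among them Ndufa11 (1.65, SE 0.96). All 17 measured genes of ATP synthase, which makes ATP from the proton gradient, were higher, by a median of 1.07, among them Atp5d (1.29) and Atp5h (1.16). Of 44 measured assembly factors of complexes I to IV, 42 were higher, by a median of 0.61, and 11 (25%, against 18.3% of all features) had both KO arrays above both WT arrays. Ndufaf3 was at -0.39 and 0.19 in KO, against -1.71 and -0.69 in WT (difference 1.1, SE 0.50), and Uqcc3, an assembly factor of complex III, differed by 0.82 (SE 0.42). Of 11 measured other subunits of complexes III and IV, 10 were higher and Cox7b2 lower (median 0.95). Cox4i2, the form of subunit 4 found in lung and vessel cells, was at 0.66 and 0.82 in KO, against -0.69 and 0.27 in WT (difference 0.95, SE 0.45). Cox7b2 (difference -1.11) was well above background on 2 arrays only.

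General mitochondrial genes showed smaller gaps between the WT arrays than the 40 genes did. WT replicate 3 was above WT replicate 1 by a median of 0.84 for 48 genes of the mitochondrial ribosome and by 0.42 for 21 genes of mitochondrial protein import. The same gap was 0.85 for the assembly factors, 1.82 for ATP synthase and 2.12 for the 40 genes. The mitochondrial ribosome genes had a median difference of 0.52, with 47 of 48 higher (Mrps27 1.06, Mrpl38 0.83), and the import genes 0.32, with 18 of 21 higher (Timm9 0.66, Timm44 0.85). The cytosolic ribosome list had a median of -0.11, with 7 of 27 higher (Rpl3 -0.60, Rps19 -0.47). The differences between these lists were not tested.

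Markers of cardiomyocytes moved with the respiratory chain genes. The mean of 16 cardiomyocyte markers was 6.09 and 6.92 on the KO arrays, against 2.12 and 6.30 on WT replicates 1 and 3, and all 16 were lowest on WT replicate 1, Ckm at -4.00 and Myh6 at 4.03. In bulk tissue, fewer cells of a type and less RNA per cell cannot be told apart. Relative to the cardiomyocyte mean of the same array, the mean of the 40 genes was -0.67 and -0.51 on the KO arrays, against 1.35 and -0.55 on the WT arrays. The difference between genotypes was then -0.99, and -0.05 without WT replicate 1. On the same scale the muscle forms Cox6a2, Cox7a1 and Cox8b averaged 0.16 and 0.45 in KO, against -0.43 and 0.30 in WT, while the 36 genes other than these and Cox6a1 averaged -0.75 and -0.59 in KO, against 1.43 and -0.62 in WT. On WT replicate 1 the 36 genes thus lay, as a mean, less far below the other arrays than the cardiomyocyte markers did, and the muscle forms further. Single genes were not set apart in this way. WT replicate 3 was above WT replicate 1 by 1.41 to 6.66 for the 16 markers. That range holds both the 1.56 to 2.71 of the 36 genes and the 4.69 to 5.26 of the muscle forms.

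**Figure D4:**
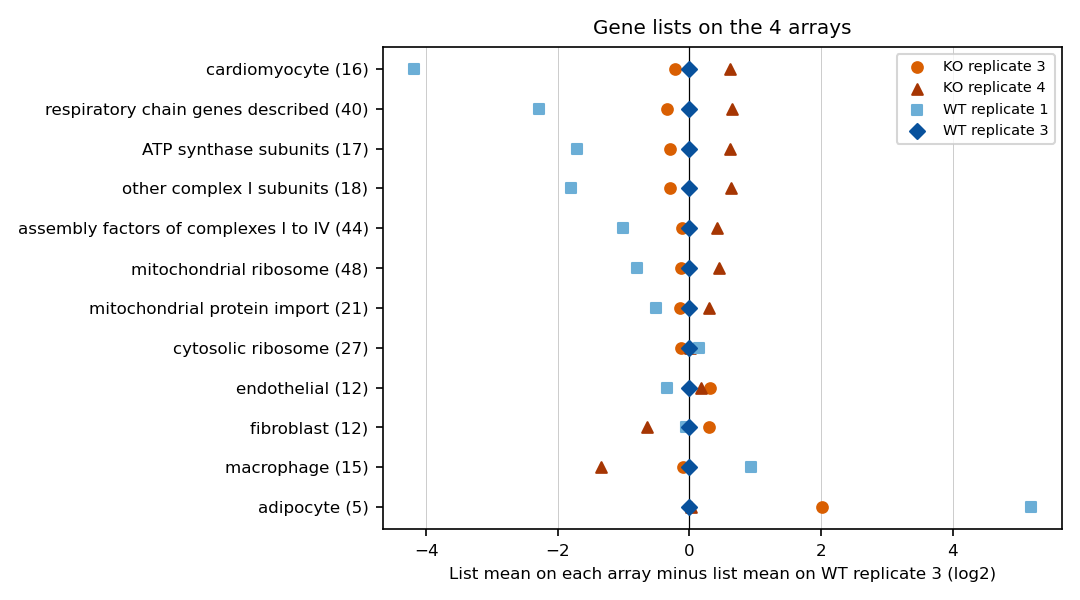
Mean of each gene list on each array minus its mean on WT replicate 3, on the log2 scale, with the number of genes measured in brackets. On WT replicate 1 the cardiomyocyte and respiratory chain lists lie far to the left and the adipocyte list far to the right.

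The mean of 5 measured adipocyte markers of 6 listed was -3.25 and -5.22 on the KO arrays, against -0.06 and -5.25 on the WT arrays, and Adipoq, the adiponectin gene, was at -2.39 and -5.08 in KO, against 1.07 and -4.89 in WT. Ucp1 and Elovl3, markers of brown fat, a tissue that also expresses Cox7a1, did not pass the filter on dim probes. Cidea, from the same list, did, and was at 2.82 and 3.18 in KO, against -0.41 and 3.28 in WT, so it was lowest on WT replicate 1 like the respiratory chain genes. The mean of 15 measured macrophage markers of 16 was 2.55 and 1.30 on the KO arrays, against 3.59 and 2.65 on the WT arrays. This mean was thus highest where the respiratory chain genes were lowest and lowest where they were highest. Of the 15 markers, 0 had a higher mean in KO (54.8% of all features), and 6 had both KO arrays below both WT arrays (16.1%). KO replicate 4 was above WT replicate 3 for 3 of them (62.2% of all features). The mean of 12 fibroblast markers was 4.69 and 3.74 in KO, against 4.34 and 4.39 in WT, but its members ran in opposite directions. KO replicate 4 was above WT replicate 3 for 5 of the 12 (62.2% of all features). Dcn was at 6.77 on KO replicate 4 and 5.98 on WT replicate 3, while Postn was at 2.48 and 6.09. The mean of 12 endothelial markers was 2.03 and 1.89 in KO, against 1.38 and 1.72 in WT. The mean of 7 measured neutrophil markers of 8 was -1.01 and -0.57 in KO, against -0.12 and -1.82 in WT. Here too the members ran in opposite directions, with 4 higher and 3 lower in KO (54.8% of all features were higher). The mean of 9 smooth muscle and pericyte markers was 1.57 and 1.28 in KO, against 1.05 and 1.43 in WT, but its members ran in opposite directions. Rgs5, a pericyte marker, was at 2.69 and 3.13 in KO, against -0.42 and 2.47 in WT, and Abcc9 and Kcnj8 were likewise lowest on WT replicate 1 and highest on KO replicate 4. Cnn1, a smooth muscle marker, was at 0.68 and -0.68 in KO, against 3.88 and 0.94 in WT. Tagln, Acta2 and Pdgfrb were likewise highest on WT replicate 1, Pdgfrb at 4.09. Myh11, from the same list, was instead lowest there, with -4.42 and -3.98 in KO, against -5.82 and -4.57 in WT. Cspg4 was highest on KO replicate 3 (-0.22) and lowest on KO replicate 4 (-0.97). The mean of 4 measured B cell markers of 6 was -1.77 and -5.36 in KO, against -2.06 and -4.15 in WT. The part of these cell types in the differences above was not tested.

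For 7 of the 40 genes the array held further probes, 9 in all. Of these, 8 gave the array order described above, and the exception was the dimmest Cycs probe, well above background on 3 arrays. It was at -4.22 and -2.97 in KO, against -6.56 and -4.30 in WT, with both KO values above both WT values. The brightest probe was used by rule, and each of the 9 others gave a larger difference, between 1.05 for a Uqcrb probe and 1.84 for that Cycs probe. For Sdhb the probe used gave 1.16 and the other 1.67, and for Ndufa5 1.41 and 1.63. Sizes of the differences therefore depend on the probe, while the order of the arrays held in 8 of 9.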

How the data were processed

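RNA from 4 heart samples was measured on 1-colour Agilent mouse arrays; each array's genotype and replicate number come from its title. The scanner software was Feature Extraction 11.0.1.1 per the file headers; version 9.1 is the one in the submitters' processing notes. The intensity used is the scanner's processed signal, background-corrected within each array per the file headers' protocol. Spot flags are other values, used as deposited. The deposited value table holds log2 values that were normalized between arrays, with a scale offset that is unknown (median 6.106 in every column, slope on scanner signals 0.997 to 1.01).

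Control and outlier spots were left out, spots of 1 probe averaged, and log2 signals set relative to each array's 75th percentile. None was saturated. A probe was kept if it stood well above background on 2 or more of the 4 arrays, except 8 without a value on some array, with the brightest probe per gene. RefSeq accessions (GRCm38.p6 table) gave names to 27234 of 39429 probes. The genotypes were compared with limma 3.58.1 (R 4.3.3; lmFit, then eBayes), and two-sided p-values were adjusted over 22926 features (Benjamini-Hochberg, threshold 0.05). The fit was tested on simulated data whose spread was far smaller than that within genotypes for the genes other than Cox6a1. How it performs at the observed spread was therefore not tested. Isoform protein sequences were not analysed here. Values are mean or per-array levels, and SE is that of limma.

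The 40 genes and the lists were chosen with earlier results of these data known, so they were given counts and medians and no test of their own. Per-array values are printed by rule for S1pr1, Cox6a1, Cox6a2, Cox7a1, Cox7a2, Cox8b, Cycs, Cyc1, Ndufa4, complex II, and the 2 largest and the smallest difference of each complex or module; of each other pathway list the 2 genes of smallest p are named, except 1 that is not reported here, and markers, Cox8a and second probes were named after their values were seen. Alternatives were another background correction (normexp), quantile and median scaling, other filters, the mean of a gene's probes and the deposited values. Further alternatives were other moderation, a threshold of 0.10 and each array left out. Normexp was run on median signals because mean signals were not among the scanner values available.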

Additional observations from a re-analysis of the deposited data

How the results depend on the processing

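Leaving out a WT array moved the medians of the 40 genes and of each complex more than leaving out a KO array did. Over the 4 settings that leave out 1 array, the median difference of the 40 genes ranged from 0.13 (without WT replicate 1) to 2.31 (without WT replicate 3), that of complex I from 0.16 to 2.38, complex II from 0.16 to 2.16, complex III from 0.13 to 2.6, complex IV from 0.11 to 2.16 and Cycs from 0.12 to 1.93. Over the same settings Cox6a2 minus Cox6a1 ranged from 0.04 to 4.78, Cox7a1 minus Cox7a2 from 0.25 to 3.15, and the 40 genes relative to cardiomyocyte markers from -1.94 to -0.05. The number of the 40 genes with a higher mean in KO was 40, or 39 with quantile normalization, median scaling and the deposited values. There the difference of Cox6a1 was -0.069, -0.025 and -0.069. Median scaling lowered the difference of every single gene by 0.11 and left the within-array differences as they were. No setting brought any of the 40 genes past the threshold, with adjusted p of 0.132 to 1 in limma, nor any feature; the settings that leave out 1 array leave 1 genotype with a lone sample, assumed to vary like the others. No paired analysis was possible because the genotypes share fewer than 2 replicate numbers. Signal over background does not limit these genes, which were well above it on all arrays.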
